A study of Mus musculus with 6 samples.

Results

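A run of 5 circular RNAs (circRNAs) of the mouse ovary with nearly consecutive ID numbers, novel_circ_000029, novel_circ_000030, novel_circ_000032, novel_circ_000033 and novel_circ_000034, is described here. They were chosen by their ID numbers and by their lower abundance after hypobaric hypoxia in these same libraries, and they are 5 of the 57233 circRNAs listed. Because that difference chose them, their RPM values, sums and gaps between groups are given as a description. The same holds for their values of the fit over all circRNAs, and none of these supports anything about them. The libraries came from ovaries of female C57BL/6J mice, given as 8 weeks old in the design text and as 6 to 8 weeks in the sample descriptions, which had been synchronized by gavage with levonorgestrel and ethinylestradiol. Doses of 0.1 and 0.02 mg/kg are stated for the hypoxia group only. One group of 15 mice lived for 15 days at the local pressure of Lanzhou (83.56 kPa, 17.8 kPa oxygen) and the other group of 15 mice for 15 days in a hypobaric chamber (43.12 kPa, 8.1 kPa oxygen). The chamber is given as a simulated 6500 m in the titles and as 5000 m in the descriptions. Normal pressure is given as 1500 m in the titles and as 1588 m in the design text. Each group gave 3 libraries, and whether a library is 1 mouse or a pool is not stated in the labels, so differences between libraries of a group may be technical and any p-value measures only those.

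A circRNA forms when the splicing machinery links the end of an exon backwards, to the beginning of that exon or of an earlier one, so that the transcript has no free ends. It resists exonucleases such as RNase R, with which these RNA samples were treated, and tends to outlive the linear RNA of its gene. A single gene can give several circRNAs that share exons. The table used here lists IDs without coordinates, sequences or gene names. No host gene, exon or sequence is therefore given for any of the 5, and whether consecutive numbers stand for neighbouring loci is not given in the sources used here.

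Abundance is given in RPM, the reads of a circRNA scaled to a fixed total of circRNA reads in each library. Whole reads could be worked out from the spacing of the RPM values. They numbered between 151364 and 369055 in the normal pressure libraries and between 487143 and 526621 in the hypoxia libraries. Every hypoxia library was thus deeper than every normal pressure library. Normal pressure replicate 2 was the shallowest, with 6.61 RPM for 1 read against 1.90 to 2.74 RPM in the others.

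Together the 5 circRNAs were a small and smaller part of the circRNA pool in hypoxia. Their summed RPM was 614, 634 and 553 in replicates 1 to 3 of normal pressure. In replicates 1 to 3 of hypoxia it was 383, 287 and 448. Each hypoxia library lay below each normal pressure library. The mean was 600.2 ± 42.3 RPM in normal pressure and 373 ± 80.9 RPM in hypoxia (SD, n = 3), which is 37.9% lower. These sums made up 0.0600% of a normal pressure library and 0.0373% of a hypoxia library. The hypoxia libraries were also more unlike each other, with a coefficient of variation of 21.7% against 7.06%. In bulk tissue, fewer cells of a type and less RNA per cell cannot be told apart, and RPM values show a part of the pool and no absolute amount.

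The sums rested on 224, 96 and 204 reads in normal pressure and 192, 151 and 218 reads in hypoxia. The libraries nearest to each other were normal pressure replicate 3 and hypoxia replicate 3. Their 95% counting intervals (exact Poisson, covering counting error only) were 480 to 634 RPM and 390.1 to 511 RPM and overlapped. In the other 8 of the 9 pairings of a normal pressure with a hypoxia library the intervals were apart. Since the 5 were chosen for lower values in hypoxia, this separation follows in part from the choice. Replicates also differed beyond counting over the table, so intervals that are apart do not measure a difference between groups. Without novel_circ_000033, the most abundant of the 5, the sum was 350.2 ± 36.0 RPM in normal pressure and 214 ± 48.3 RPM in hypoxia (SD, n = 3), a like proportion of 38.9% lower.

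**Figure D1:**
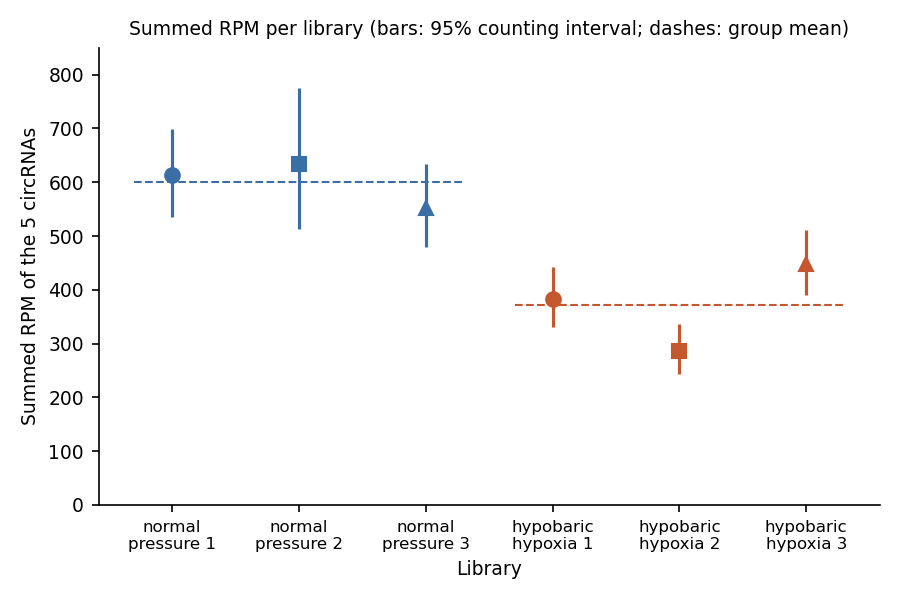
Summed RPM of the 5 circRNAs (y axis) in each of the 6 libraries (x axis), with 95% counting intervals as bars and the group means as dashed lines. The normal pressure libraries sit between 553 and 634 RPM and the hypoxia libraries between 287 and 448 RPM, and the intervals of the 2 libraries labelled replicate 3 overlap.

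The label of these circRNAs as lower together held for the group means and only in part for the single libraries. All 5 had a lower mean RPM in hypoxia, and all 5 had a log2 fold change below 0. In 3 of them, novel_circ_000029, novel_circ_000030 and novel_circ_000034, the groups did not overlap. In the other 2, novel_circ_000032 and novel_circ_000033, the groups overlapped. Over all 15737 circRNAs tested, 39.9% had a log2 fold change below 0, and 4.85% had groups that did not overlap with hypoxia lower. Among the 6057 circRNAs seen in all 6 libraries the latter share was 9.39%. It was 10.3% among the 1371 circRNAs with a mean RPM from 77.0 to 204, the range of the 4 abundant ones described here. The median log2 fold change of these sets was -0.07 and -0.05, so most circRNAs in each were below 0 too.

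The fit over all circRNAs called none of the 5. In limma on log2(RPM + 4.765), where the added constant shrinks the changes of scarce circRNAs, 0 of 5 had a Benjamini-Hochberg adjusted p under 0.05, and 3 of 5 had an unadjusted p under 0.05. A fit on the recovered reads (limma voom) gave the same counts, 0 and 3. Over all circRNAs tested, 0.407% were called in either direction and 0.241% were called lower, and 2.85% had an unadjusted p under 0.05 and were lower. The limma adjusted p of the 5 ranged from 0.281 to 0.888. Their median log2 fold change was -0.70, beside a median of 0.18 over all circRNAs tested and -0.07 over those seen in all 6 libraries. Since the 5 were chosen on this contrast, nothing further is read from these counts.

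The largest proportional difference among the 4 abundant circRNAs was that of novel_circ_000029. Its RPM was 112, 106 and 86.7 in normal pressure replicates 1 to 3 and 63.9, 38.0 and 55.4 in hypoxia replicates 1 to 3. The groups stood 22.8 RPM apart at their nearest libraries, normal pressure replicate 3 and hypoxia replicate 1. The mean went from 102 ± 13.3 to 52.4 ± 13.2 RPM (SD, n = 3), 48.4% lower. On the log2 scale the difference was -0.91 ± 0.35 (standard error; 95% interval -1.60 to -0.23). Of the 6057 circRNAs seen in all libraries, 252 (4.16%) had a lower log2 fold change. In 3 of the 9 pairings of libraries the counting intervals of the groups were apart.

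The level of novel_circ_000030 was close to that of novel_circ_000029 in most libraries. It had 93.1, 99.1 and 106 RPM in normal pressure replicates 1 to 3 and 77.9, 36.1 and 69.8 RPM in hypoxia replicates 1 to 3. Here the normal pressure libraries were tightly grouped and hypoxia replicate 2 was low beside the other 2 hypoxia libraries. The mean went from 99.3 ± 6.28 to 61.2 ± 22.2 RPM (SD, n = 3), 38.3% lower. The log2 fold change was -0.72 ± 0.34 (standard error). Without hypoxia replicate 2 the log2 fold change was -0.41. The groups were 15.3 RPM apart at their nearest libraries, and in 2 of 9 pairings the counting intervals were apart.

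The most abundant of the 5 was novel_circ_000033, which ranked 788 by mean RPM among the circRNAs tested. It had 227.35, 284 and 238 RPM in normal pressure replicates 1 to 3 and 124, 123 and 227.86 RPM in hypoxia replicates 1 to 3. Hypoxia replicates 1 and 2 were far below normal pressure, while hypoxia replicate 3 was at the level of normal pressure replicate 1 and above it by 0.51 RPM, less than the 2.74 RPM of 1 read there. The mean went from 249.96 ± 30.1 to 158 ± 60.2 RPM (SD, n = 3), 36.6% lower. The log2 fold change was -0.70 ± 0.23 (standard error). Without hypoxia replicate 3 the log2 fold change was -0.98. Hypoxia replicate 3 rested on 111 reads of this circRNA, with a counting interval of 187 to 274 RPM, and replicates 1 and 2 on 62 and 65 reads, with intervals of 94.9 to 159 and 95.3 to 157 RPM. The interval of hypoxia replicate 3 was apart from those of the other hypoxia libraries.

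The smallest proportional difference was that of novel_circ_000034, with 167, 145 and 117 RPM in normal pressure replicates 1 to 3 and 109.8, 89.3 and 94.4 RPM in hypoxia replicates 1 to 3. The lowest normal pressure library exceeded the highest hypoxia library by 6.71 RPM, where 1 read of that normal pressure library stands for 2.71 RPM. The groups thus did not overlap, by a margin of a few reads. The mean went from 143 ± 25.4 to 97.8 ± 10.7 RPM (SD, n = 3), 31.6% lower. The log2 fold change was -0.52 ± 0.29 (standard error; 95% interval -1.08 to 0.05). Of the circRNAs seen in all libraries, 15.8% had a lower log2 fold change.

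Too few reads stood behind novel_circ_000032 to describe a difference. It had 5, 0 and 2 reads in normal pressure replicates 1 to 3 and 4, 0 and 0 reads in hypoxia replicates 1 to 3, which are 13.7, 0 and 5.42 RPM and 7.99, 0 and 0 RPM. The smallest value listed above 0 was 2 reads in every library, so a listed 0 may stand for 0 or 1 read. A true count of 0 allows up to 3 reads (a one-sided 95% limit, lower than the upper ends of the two-sided intervals plotted). These 3 reads are 19.8 RPM in normal pressure replicate 2, 5.70 RPM in hypoxia replicate 2 and 6.16 RPM in hypoxia replicate 3. If a listed 0 hides 1 read, the limits are higher than these and than the plotted intervals allow for. The libraries of the groups were interleaved, and a difference was not detectable at this depth. Its log2 fold change was -0.54 with a 95% interval from -1.98 to 0.90.

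**Figure D2:**
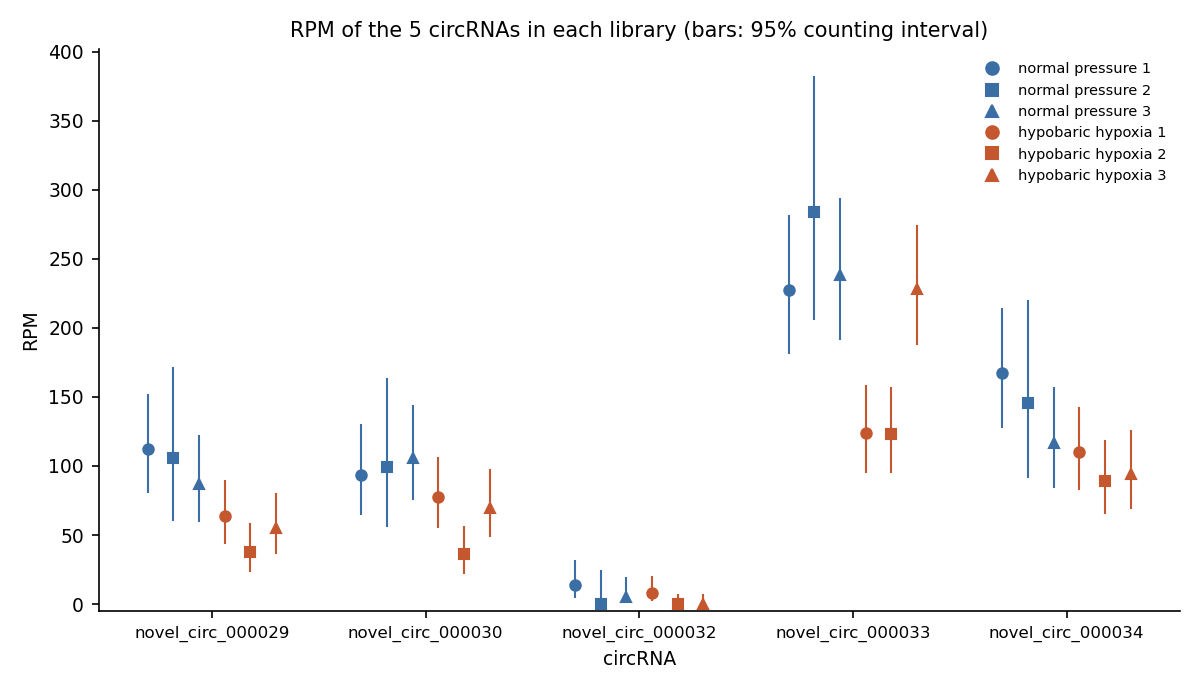
RPM (y axis) of each of the 5 circRNAs (x axis) in the 6 libraries, with 95% counting intervals as bars. For novel_circ_000033 hypoxia replicate 3, at 227.86 RPM, sits at the level of normal pressure, and novel_circ_000032 is near 0 in all libraries.

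The order of the 4 abundant circRNAs was similar in both groups. By mean RPM in normal pressure it ran from novel_circ_000033 through novel_circ_000034 to novel_circ_000029 and novel_circ_000030. The last 2 differed by less than their spread, at 102 ± 13.3 and 99.3 ± 6.28 RPM (SD, n = 3). In hypoxia these 2 changed places, at 52.4 ± 13.2 and 61.2 ± 22.2 RPM (SD, n = 3), again within their spread. This order is one of reads. The RPM values are not scaled by length, lengths were not analysed here, and which reads of a circRNA were counted is not given. Whether the order also holds for molecules was therefore not tested.

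The makeup of the run, the share of each circRNA in the summed RPM of the 5, overlapped between the groups for every one of them. The share of novel_circ_000033 was 41.7% ± 4.08 in normal pressure and 42.1% ± 9.35 in hypoxia (SD, n = 3). The share of novel_circ_000034 was 23.7% ± 3.16 and 27.0% ± 5.22, and that of novel_circ_000030 was 16.6% ± 2.16 and 16.2% ± 3.90 (SD, n = 3). For novel_circ_000029 it was 16.9% ± 1.32 and 14.1% ± 2.26, and for novel_circ_000032 1.07% ± 1.12 and 0.695% ± 1.20 (SD, n = 3). Each difference between group means was at most 3.22 percentage points and within the range of single libraries.

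Within the hypoxia group the makeup was less even. The share of novel_circ_000033 was 32.3% in replicate 1 (95% exact Clopper-Pearson interval 25.7% to 39.4%), 43.0% in replicate 2 (35.0% to 51.3%) and 50.9% in replicate 3 (44.1% to 57.7%). The intervals of replicates 1 and 3 were apart. Libraries of one group also differed beyond counting over the table as a whole. Whether shares move this much among other circRNAs of like abundance was not tested. In normal pressure the share ranged from 37.1% to 44.8%, and all 3 intervals overlapped.

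**Figure D3:**
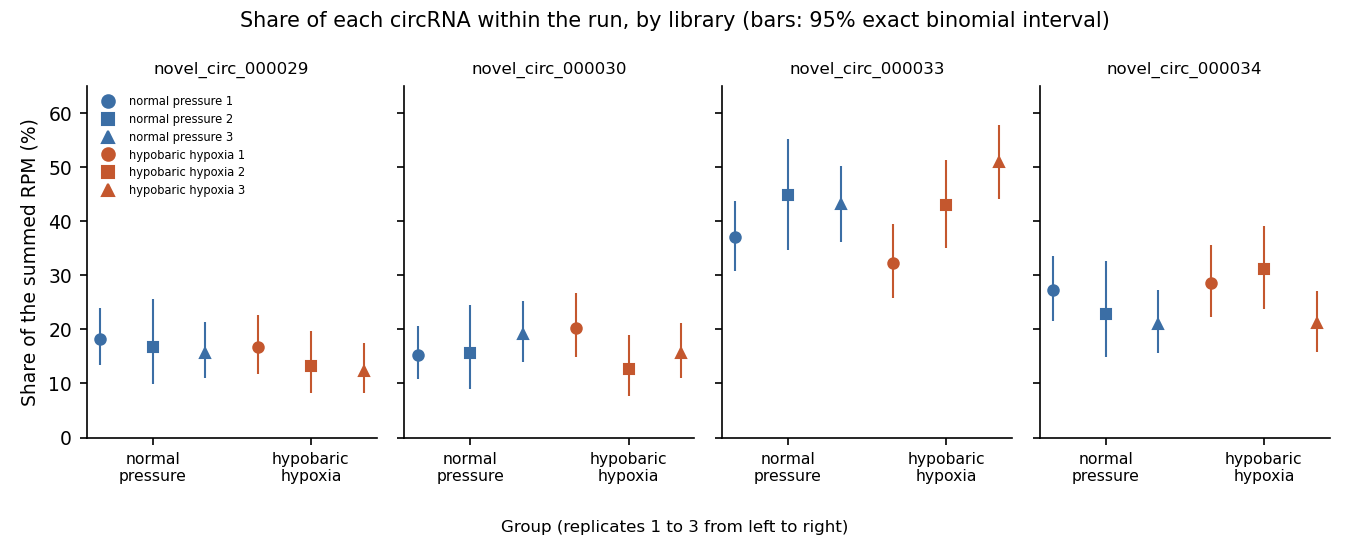
Share of the summed RPM of the 5 circRNAs in percent (y axis) for the 4 abundant ones, by library (x axis), with 95% exact binomial intervals as bars. The groups overlap in each panel, and the share of novel_circ_000033 runs from 32.3% to 50.9% among the hypoxia libraries.

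The spread between replicates was compared with the spread that counting alone gives. In normal pressure the coefficients of variation were 13.1% for novel_circ_000029, 6.32% for novel_circ_000030, 12.0% for novel_circ_000033 and 17.7% for novel_circ_000034, where counting reads alone gives 20.0%, 20.1%, 13.0% and 16.8%. The replicates of normal pressure were thus about as close as their reads allow, or closer. In hypoxia the coefficients were 25.2%, 36.2%, 38.0% and 10.9% in the same order, against 19.5%, 18.1%, 11.2% and 14.2% from counting. There the coefficients of novel_circ_000029, novel_circ_000030 and novel_circ_000033 were above the counting value, the first by the least, and that of novel_circ_000034 was below it. A coefficient from 3 libraries is imprecise. The hypoxia counting intervals of novel_circ_000029 all overlapped (43.7 to 90.2, 23.2 to 58.7 and 36.5 to 80.6 RPM), so variation beyond counting is not shown for it. Over the 1371 circRNAs in the same range of abundance the median coefficient was 25.4% in normal pressure and 18.2% in hypoxia, the opposite order to that of novel_circ_000029, novel_circ_000030 and novel_circ_000033.

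Deviations from the group mean, from which the difference between groups is taken out, showed how far the 4 abundant circRNAs moved together from library to library. The 5 were chosen from these same libraries, so the choice may have shaped these deviations too. In hypoxia replicate 2 all 4 lay below their group mean, with deviations of -0.39 for novel_circ_000029, -0.63 for novel_circ_000030, -0.29 for novel_circ_000033 and -0.12 for novel_circ_000034 on the scale of log2(RPM + 4.765). In the other 5 libraries at least 1 of the 4 lay on the other side of its mean. In hypoxia replicate 3 novel_circ_000033 deviated by 0.57 and novel_circ_000034 by -0.04.

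Over the 6 libraries, the Pearson correlation of these deviations was 0.80 between novel_circ_000029 and novel_circ_000030 and 0.79 between novel_circ_000029 and novel_circ_000034. With the points of hypoxia replicate 2 left out, but with group means still taken over every library, these were 0.41 and 0.88. The remaining hypoxia points then keep an offset from a mean that holds the omitted library. These values therefore cannot show whether the pairs move together without it. The remaining 4 of the 6 pairs had correlations between -0.14 and 0.37, and novel_circ_000033 with novel_circ_000034 had the lowest. With hypoxia replicate 2 left out in the same way, the values for these 4 were between -0.32 and -0.01. They carry the same offset, so nothing is read from their sign. The 6 points of a pair share their libraries and the deviations of a group sum to 0, so these values are descriptions.

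**Figure D4:**
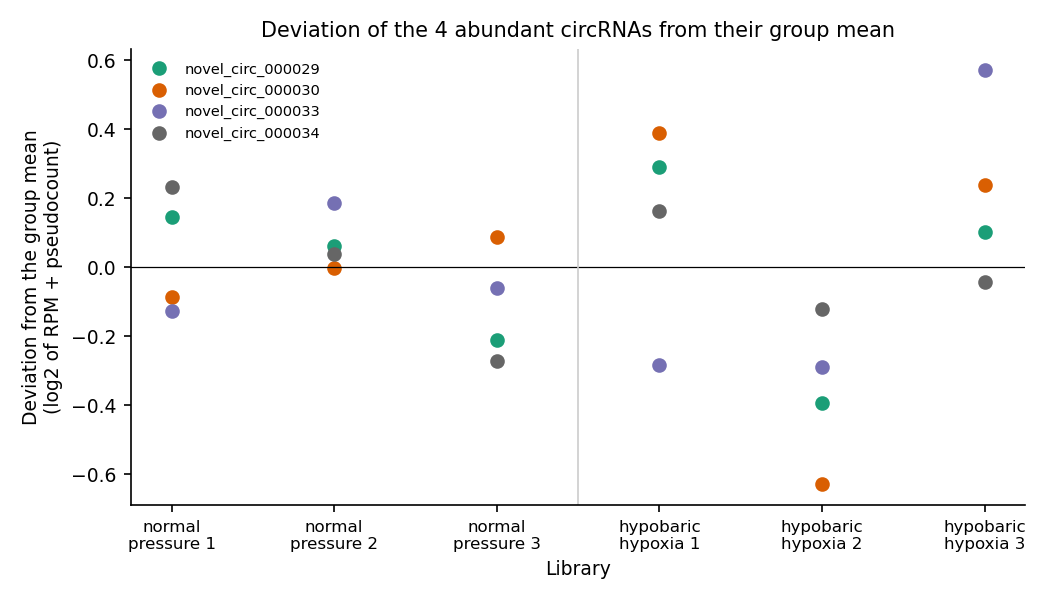
Deviation of the 4 abundant circRNAs from their own group mean on the scale of log2(RPM + 4.765) (y axis) in each library (x axis). All 4 points lie below 0 in hypoxia replicate 2, and novel_circ_000033 is 0.57 above its mean in hypoxia replicate 3.

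For reference, IDs next to each other shared little of this deviation over the table as a whole, the run included. Each value here pools all pairs, and the median circRNA tested had a mean of 14.8 RPM. They are thus not on the scale of the single pairs of abundant circRNAs above. Across 5426 pairs of tested circRNAs with consecutive IDs the correlation of deviations was 0.03. It was 0.04 across 4240 pairs whose IDs lay 100 apart and 0.02 across 4300 pairs whose IDs lay 1000 apart. Among circRNAs seen in all 6 libraries it was 0.07 for 1057 consecutive pairs. The log2 fold changes of consecutive IDs correlated at 0.09 over all tested and at 0.17 over those seen in all 6 libraries, against 0.002 and 0.03 at an ID distance of 1000. These correlations are across circRNAs, which are not independent replicates.

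The 4 abundant circRNAs stood close together in a stretch of scarce ones. Their mean RPM over all libraries was at least 77.0, a level that 3.77% of the listed circRNAs reached. Of the 57228 overlapping windows of 6 consecutive IDs in the table, 27 held at least 4 such circRNAs, a count made after the values were seen. The skipped number, novel_circ_000031, was listed at 8.22 RPM (3 reads) in normal pressure replicate 1 and at 0 in the other 5 libraries, and it was too scarce to be tested.

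The IDs directly beside the run were scarcer, and no difference was detected in them. Of the 5 IDs before it, from novel_circ_000024 to novel_circ_000028, only novel_circ_000028 was seen in 3 or more libraries, with a mean of 11.8 ± 10.3 RPM in normal pressure and 16.9 ± 14.6 RPM in hypoxia (SD, n = 3; log2 fold change 0.28, limma adjusted p = 0.951). Of the 5 after it, from novel_circ_000035 to novel_circ_000039, the first 2 were tested. The mean of novel_circ_000035 was 20.8 RPM in normal pressure and 23.2 RPM in hypoxia (log2 fold change 0.13, 95% interval -1.19 to 1.45). The mean of novel_circ_000036 was 29.2 and 27.3 RPM (log2 fold change -0.13, 95% interval -1.33 to 1.08). These intervals are wide and include the log2 fold changes of the 5 members of the run, so a like difference in the adjacent IDs was not detectable at this depth.

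Within 25 IDs on either side, 51 IDs were not among the 5, and 14 of them were seen in 3 or more libraries and tested. Their median log2 fold change was -0.25, and 9 of the 14 were below 0. Over all circRNAs tested the median was 0.18 and 39.9% were below 0, and over those seen in all 6 libraries the median was -0.07. Among the 14, 6 were seen in all 6 libraries. One of the 14, novel_circ_000012, was called lower in hypoxia (log2 fold change -2.75, limma adjusted p = 0.0173), beside 0.241% called lower over all circRNAs tested. It had 16.44, 337 and 40.6 RPM in normal pressure replicates 1 to 3 and 5.99, 0 and 16.42 RPM in hypoxia replicates 1 to 3. The groups were 0.02 RPM apart at their nearest libraries and normal pressure replicate 2 was far above all others. Its call was lost without any 1 of the 3 normal pressure libraries or hypoxia replicate 2, with limma adjusted p-values from 0.130 to 0.567.

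Among the IDs within 25, the 2 others that were seen in all 6 libraries at a level near that of the run did not pass the test. The mean of novel_circ_000006 was 92.2 ± 71.0 RPM in normal pressure and 71.3 ± 15.7 RPM in hypoxia (SD, n = 3). Its log2 fold change was 0.11 (95% interval -1.41 to 1.63, limma adjusted p = 0.972), and normal pressure replicate 1, at 13.7 RPM, was far below the other libraries. More abundant than the run was novel_circ_000008, with 304 ± 126 RPM in normal pressure and 220.4 ± 9.07 RPM in hypoxia (SD, n = 3). Its log2 fold change was -0.38 (95% interval -0.80 to 0.03, limma adjusted p = 0.634), and normal pressure replicate 2, at 449 RPM, set its wide spread.

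**Figure D5:**
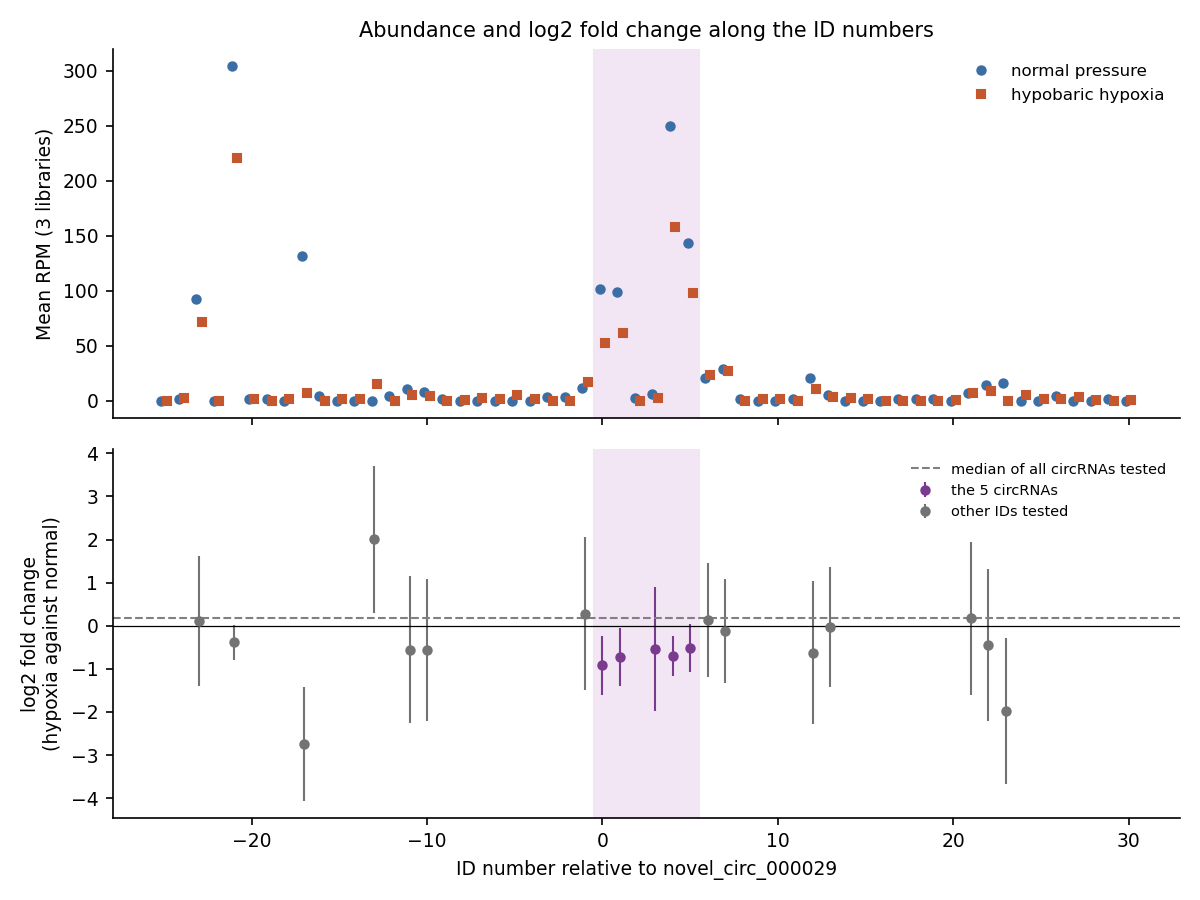
Mean RPM in each group (upper panel, 3 libraries per point) and log2 fold change with 95% limma interval for the circRNAs tested (lower panel), by ID number relative to novel_circ_000029 (x axis). The shaded band holds the run, whose 5 log2 fold changes lie between -0.91 and -0.52, and the dashed line is the median of 0.18 over all circRNAs tested.

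The circRNAs whose pattern over the 6 libraries was most like the summed RPM of the run were sought among the 6053 others seen in all libraries. By Pearson correlation with the log2 sum, 29 of these others reached 0.95. Within the run the values were 0.96 for novel_circ_000029, 0.91 for novel_circ_000030, 0.90 for novel_circ_000033 and 0.84 for novel_circ_000034. These are parts of the sum, which raises their correlation with it, while the 6053 others are not. The closest were novel_circ_027917 (0.996), novel_circ_022832 (0.992), novel_circ_003759 (0.986), novel_circ_052778 (0.985) and novel_circ_012388 (0.984). None of their IDs lies near the run.

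In the library order used above, novel_circ_052778 had 389, 462 and 387 RPM in normal pressure and 196, 129 and 220 RPM in hypoxia. It shared with the run the lowest value in hypoxia replicate 2 and the highest in normal pressure replicate 2. The one nearest in level to the 4 abundant circRNAs was novel_circ_003759, with 129, 132 and 117 RPM in normal pressure and 77.9, 62.7 and 84.2 RPM in hypoxia. Since these circRNAs were picked for the likeness, their lower values in hypoxia and the high and low libraries they share with the run follow from the choice. In the fit over all circRNAs novel_circ_052778 was called lower (log2 fold change -1.19, limma adjusted p = 1.53e-05) and the other 4 were not, which is given as a description.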

How the data were processed

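Mouse ovary RNA was treated with DNase I, depleted of ribosomal RNA and digested with RNase R before strand-specific sequencing on a DNBSEQ-G400 instrument, per the labels' protocols. BWA, Bowtie2 and the build GRCm38 are named, without versions or roles, per the submitters' processing notes. Which caller and filters gave the circRNAs is not given in the sources used here. As deposited by the authors, RPM values were scaled to the same total per library over the listed circRNAs. Values above 0 were whole multiples of a step in every library (100% within 0.1 read), the smallest being 2 reads, and reads were recovered from these steps for intervals and the voom fit. No molecular identifiers are named in the labels, so intervals cover counting error only. Replicates differed beyond sampling noise (chi-square divided by its degrees of freedom, 2.74 to 3.56), and each library counted as 1 replicate. All libraries are given as batch 1.

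CircRNAs above 0 in at least 3 of 6 libraries were tested on log2(RPM + 4.765), the median of the smallest values above 0, with limma 3.58.1 in R 4.3.3 (intensity trend, robust variances, group only, two-sided, Benjamini-Hochberg adjustment at 0.05), after a test on simulated data. Sums, shares and intervals used Python 3.11.15 with scipy 1.17.1. The members, lists and tests were chosen with earlier results of these data known. Named circRNAs are the 5, the skipped number, 5 IDs on each side, called IDs within 25, and the 5 most alike by correlation; novel_circ_000006 and novel_circ_000008 were named after their values were seen. Alternatives changed the pseudocount, filter, scaling, variance model, replicate block and libraries included.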

Additional observations from a re-analysis of the deposited data

How the results depend on the processing

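None of the 5 circRNAs was called under any of 15 alternatives, with limma adjusted p-values from 0.144 to 0.98, and their log2 fold changes stayed below 0 in all of those in which they were tested. The 4 abundant ones were tested in 15 and novel_circ_000032 in 11. The log2 fold change of novel_circ_000032 became -1.73 with voom on recovered reads. Leaving out 1 library gave a log2 difference of the summed RPM between -0.85 and -0.53, beside -0.71 with all libraries. Differences in shares moved by less than their spread between replicates, although without 1 library that of novel_circ_000033 ranged from -3.99 to 5.32 percentage points that of novel_circ_000030 from -2.55 to 1.31, that of novel_circ_000032 from -1.07 to 0.20, that of novel_circ_000034 from 1.13 to 6.14 and that of novel_circ_000029 from -4.07 to -1.93. The 64 calls over all circRNAs numbered 27 with 1.19 RPM added before the logarithm, 42 where presence in all 6 libraries was required (fewer were tested), 97 with voom, 0 with ordinary limma variances (no trend, not robust; 1408 had an unadjusted p under 0.05), and 4 to 58 with 1 library left out (6 without normal pressure replicate 1, 4 without replicate 3, and 41, 21 and 27 without hypoxia replicates 1, 2 and 3). Median centring gave 22 lower among 59 calls, against 38 of 64. The median log2 fold change of the 5 was -0.61 with that centring and -0.65 after quantile normalization, where the median over all circRNAs tested stood at 0.26 and 0.02. The 1 call among neighbouring IDs became 0 with the smaller pseudocount, with voom, with ordinary variances, where all 6 libraries were required (novel_circ_000012 was then not tested), and 0 to 1 with 1 library left out. Except where stated, the cause was not tested. With the replicate number as a block, 65 circRNAs were called over the table, 0 of the 5 and 1 neighbour, and the difference of the summed RPM was -0.71. Libraries of equal number showed no common deviation (correlation -0.003, -0.005 and 0.011). Depth limits what can be said of novel_circ_000032 and the adjacent IDs.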
